A study of Mus musculus with 2 samples.

Results

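The Tfap2c, Bmp7 and Aurka domain is a stretch of mouse chromosome 2 (mm10), 2000 kb from position 171500001 on, taken from a table of allele-resolved ATAC-seq counts. ATAC-seq uses a transposase that cuts and tags open DNA, so a count stands for accessible chromatin. Every window of 50 kb that lies wholly inside the stretch was a member, which gave 38 of the 43941 windows in the table. The stretch was chosen because its counts on the 129 allele exceeded those on the CAS allele in these same libraries. The allelic counts below are therefore a description and carry no test. The 6 genes Cbln4, Mc3r, Aurka, Cstf1, Tfap2c and Bmp7 were located by their RefSeq positions on GRCm38.p6, the patched form of mm10.

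The libraries were made from F121-6, a female hybrid mouse embryonic stem cell line with 1 chromosome set from 129 and 1 from castaneus (CAS) mice, grown with LIF and serum on mitomycin-inactivated embryonic fibroblast feeders. There was 1 group of 2 replicates, untreated as far as the labels say, and nothing says whether they came from separate cultures. The spread between them may thus be technical. Both alleles of a replicate come from the same cells and the same library. Over the whole table replicate 1 held 90154 counts and replicate 2 held 119807. Stem cell identity was checked on fixed marker lists. The 10 pluripotency genes all had counts, with a median of 23.9 counts per window over the 4 allele columns, against 5.50 for the 12 fibroblast genes, which also all had counts. The pluripotency windows summed to 177 and 217 counts in replicates 1 and 2, and the fibroblast windows to 66 and 73. None of the 12 fibroblast genes was at 0 in all columns, and their median was near the mean of 5.70 over all windows with a coding gene. The trophoblast list had a median of 16 counts per window, with 43 and 33 counts in all, from 5 of 6 genes; Krt7 was at 0 in all columns. The part of feeder cells or of other cell types in the values of the domain was not tested.

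The genes of the domain serve different tissues. Tfap2c encodes AP-2 gamma, a transcription factor of trophoblast and primordial germ cells, and Bmp7 a secreted ligand of the bone morphogenetic protein (BMP) family, which signals through receptor kinases to Smad proteins. Aurka encodes Aurora A, a kinase of the mitotic spindle that every dividing cell uses, and Cstf1 a subunit of the cleavage stimulation factor that helps to form the 3′ ends of messenger RNAs. Mc3r encodes a melanocortin receptor of the brain that acts in energy balance, and Cbln4 a secreted cerebellin that organizes synapses.

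The starts of 4 member genes could be shown as sequence, because the RefSeq promoter table (GRCm38.p6) held Cbln4, Mc3r, Aurka and Cstf1. They are given because their windows stand on opposite sides of the allelic pattern. The starts of Cbln4 and Mc3r lay in windows with more 129 counts, while those of Aurka and Cstf1 shared the single window with more CAS counts in both replicates. Each sequence is the 250 bases before the start site, 5′ to 3′ on the strand of the gene: chr2:172043467-172043716 (minus strand) for Cbln4, chr2:172248242-172248491 (plus) for Mc3r, chr2:172370571-172370820 (minus) for Aurka and chr2:172370753-172371002 (plus) for Cstf1. Capitals mark matches to the motifs described next.
Cbln4: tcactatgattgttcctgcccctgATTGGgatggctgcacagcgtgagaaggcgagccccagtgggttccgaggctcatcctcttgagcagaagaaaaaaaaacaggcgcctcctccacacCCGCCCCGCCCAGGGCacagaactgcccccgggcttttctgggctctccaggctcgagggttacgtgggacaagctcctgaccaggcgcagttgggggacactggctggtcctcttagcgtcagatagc
Mc3r: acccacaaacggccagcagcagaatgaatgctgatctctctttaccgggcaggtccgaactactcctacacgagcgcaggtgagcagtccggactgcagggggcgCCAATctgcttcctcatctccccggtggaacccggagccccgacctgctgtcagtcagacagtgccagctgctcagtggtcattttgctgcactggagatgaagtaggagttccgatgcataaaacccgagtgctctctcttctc
Aurka: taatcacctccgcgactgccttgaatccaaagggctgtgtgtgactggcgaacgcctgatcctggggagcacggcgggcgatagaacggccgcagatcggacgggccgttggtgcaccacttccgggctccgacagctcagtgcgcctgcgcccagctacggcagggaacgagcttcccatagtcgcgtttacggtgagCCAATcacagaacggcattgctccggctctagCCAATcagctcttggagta
Cstf1: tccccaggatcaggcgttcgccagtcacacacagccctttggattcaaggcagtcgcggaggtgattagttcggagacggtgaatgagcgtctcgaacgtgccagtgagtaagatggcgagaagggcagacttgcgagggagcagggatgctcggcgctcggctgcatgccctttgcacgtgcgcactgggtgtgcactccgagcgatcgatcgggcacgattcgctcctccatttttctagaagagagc

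The motifs were searched on both strands of the table's promoters, which run from 250 bases before to 50 after the start. They were the AP-2 motif GCCNNNGGC, the CCAAT box (CCAAT), the GC box (GGGCGG), the cell cycle homology region or CHR (TTTGAA) and the TATA box (TATAAA). Aurka had 2 CCAAT boxes, 51 and 19 bases before its start, and a CHR match 32 bases after it, past the printed part. CCAAT is found in 37.4% and the CHR letters in 17.9% of the 32851 promoters of the table. Cbln4 had 1 AP-2 match, which overlaps 1 of its 2 GC boxes, and 1 CCAAT box. The AP-2 letters occur in 16.6% of promoters and the GC box in 35.7%. Mc3r had 1 CCAAT box and Cstf1 none of the 5 motifs, and none of the 4 promoters held the TATA letters, found in 13.6% of all. CG dinucleotides were most frequent at Cstf1 (27) and Aurka (24), followed by Cbln4 (15) and Mc3r (14), against a median of 7 over all promoters. Aurka and Cstf1 run in opposite directions from start sites 433 bp apart, and their annotated spans share 242 bp, so counts on a 50 kb scale cannot separate them. These matches describe letters only, and the table does not resolve which part of a window was open.

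Summed over the domain, the 129 allele held 74 counts and the CAS allele 42 in replicate 1. In replicate 2 they held 60 and 39 counts. The 129 allele was thus higher in both libraries, by 32 and 21 counts. The 129 share, that is the 129 count as a percentage of the counts on either allele, was 63.8% in replicate 1 (exact Clopper-Pearson 95% interval 54.4 to 72.5%) and 60.6% in replicate 2 (50.3 to 70.3%), a mean of 62.2% ± 2.25 (SD, n = 2). The intervals cover counting error only. What is counted and how alleles were assigned are not stated. More cells open on 129, more cuts per cell and a difference in allele assignment therefore cannot be told apart.

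Chromosome 2 itself leaned to 129. Outside the domain its share was 53.5% in replicate 1 and 52.2% in replicate 2, and over the whole table it was 48.8% and 49.9%. With each allele scaled to its total on the rest of chromosome 2, the mean share of the domain was 59.5%. The 2 Mb before the domain had 54.8% and 58.9%, and the 2 Mb after it 61.2% and 50.9%, so the neighbouring stretches were also above 50% in both replicates. Of 60 stretches of 2 Mb on chromosome 2 with 50 or more counts per replicate, 36 were above 50% in both replicates, and 0 had a higher mean share than the domain. The highest mean was that of the domain, the median 53.2% and the lowest 47.2%. Sliding a 2 Mb stretch along the chromosome in steps of 1 window gave 4 placements of 2414 with a higher mean, up to 62.7%, and all 4 overlapped the domain. This order follows from how the domain was chosen.

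**Figure D1:**
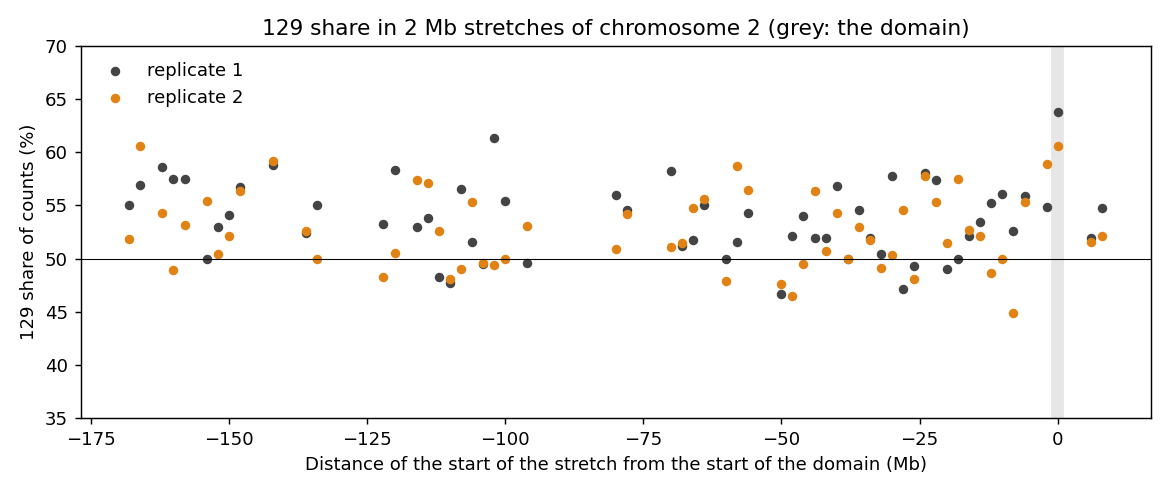
129 share of ATAC-seq counts (%, y axis) in 2 Mb stretches of chromosome 2 with 50 or more counts per replicate, by distance from the start of the domain (Mb, x axis), with 1 point per replicate. The domain, shaded, stands at 63.8% and 60.6%, while the median of the mean share over the 60 stretches is 53.2%.

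Of the 38 windows, 29 held a count and 9 were at 0 in all 4 columns. The 129 allele was higher in both replicates in 12 windows, where 8.96% of all windows in the table are, and CAS was higher in both in 1 window, where 9.87% of all windows are. On chromosome 2 outside the domain these percentages are 12.2% and 6.58%. Among windows with 4 or more counts over the 4 columns, the counts were 12 and 1 of 22 in the domain, and such windows of the whole series gave 13.3% and 14.9%. The windows were chosen on this difference, so nothing is read from the comparison. In 16 windows with a count neither allele was higher in both replicates, including 3 with opposite directions.

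The excess was small in each window. The largest 129 minus CAS difference was 3 counts in replicate 1 and 4 in replicate 2, and the lowest was -1 and -2. When 2 or more counts were required in both replicates, 7 windows stood on the 129 side, where 1.26% of all windows do, and 0 on the CAS side, where 1.5% do. The 12 windows with 129 higher carried 27 of the 32 excess counts of replicate 1. In replicate 2 they carried 28, while all other windows together had a difference of -7. These 12 windows were picked for their 129 excess, so this split follows from the picking. Nearly the same number of windows held a count on each allele, 25 on 129 against 23 on CAS in replicate 1, then 25 against 24. The 129 excess was thus seen in how many counts a window held, and little in how many windows were occupied. Windows with several counts tend to hold both alleles, so occupancy could show little of a difference.

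**Figure D2:**
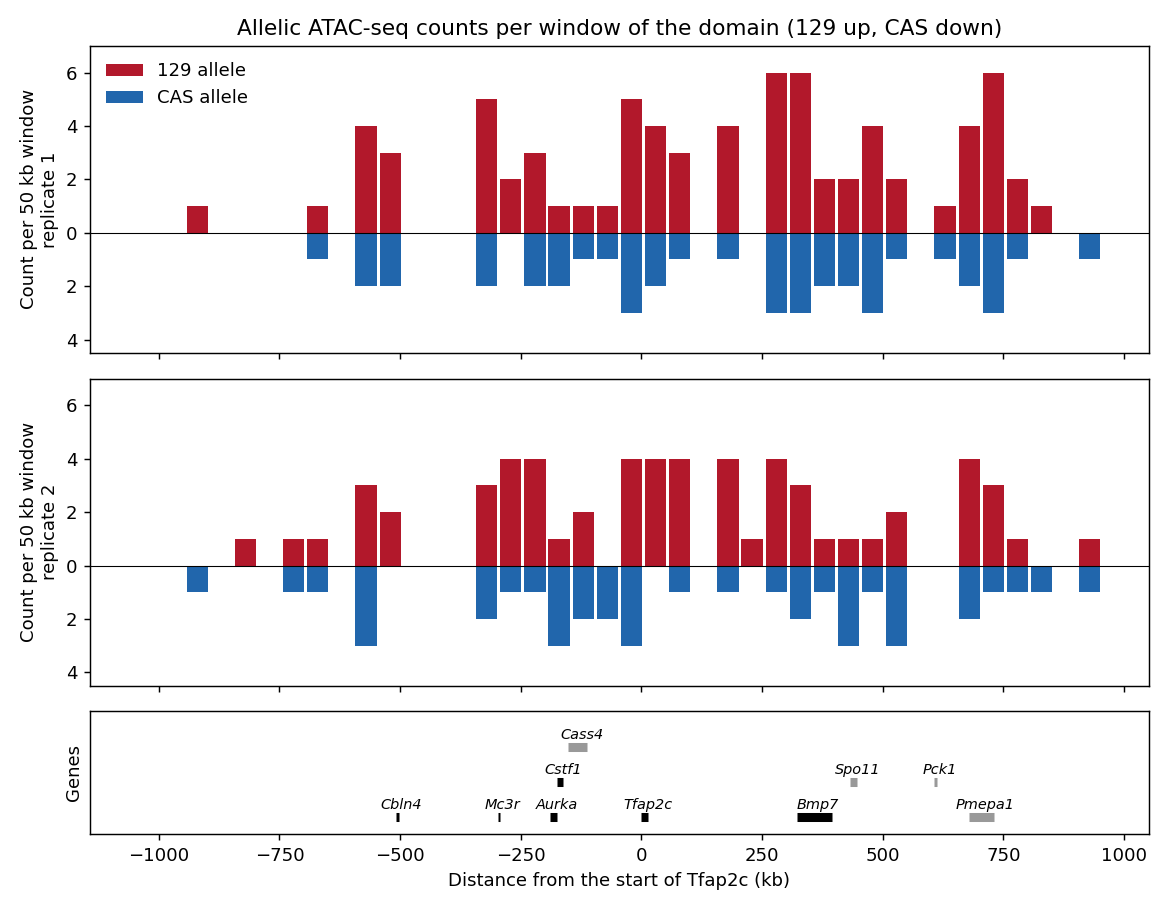
Counts per 50 kb window (y axis, 129 upward and CAS downward) by distance from the start of Tfap2c (kb, x axis), for replicate 1 (top) and replicate 2 (middle), with member genes in black and 4 further coding genes in grey below. Red bars exceed blue bars in both replicates in 12 windows, most of them between Mc3r and Bmp7, and the window of Aurka and Cstf1 shows the reverse; gaps are windows at 0 and 2 windows not in the table.

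The excess was uneven along the domain. The first 500 kb, where no coding gene lies, held 6 against 3 counts (129 against CAS) in replicate 1 and 6 against 6 in replicate 2. Pairs of values that follow have the same order, replicate 1 and then replicate 2. The first window, which begins at 171500001, was at 0 in all columns, as was the nearest one in the table outside it. From 172000001 to 172500000, from Cbln4 to Fam209, the counts were 16 against 10, then 16 against 11. From 172500001 to 173000000, around Tfap2c, Bmp7 and Spo11, they were 32 against 17, then 26 against 12. This segment had the highest share in replicate 2 (68.4%), and with a difference of 15 and 14 counts it gave the largest excess in both replicates.

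The last 500 kb, from Rae1 to Pmepa1 and beyond, held 20 against 12 counts in replicate 1 and 12 against 10 in replicate 2, so its difference fell from 8 to 2 counts between the replicates. The last window, which begins at 173450001, had 0 against 1, then 1 against 1, and the first one past the border 0 against 1, then 0 against 0.

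A stretch of 14 windows from Mc3r to the first Bmp7 window (172200001 to 172900000), picked out after its values were seen, had 41 against 21 counts in replicate 1 and 38 against 19 in replicate 2, shares of 66.1% and 66.7%. Of the 12 windows with 129 higher in both replicates, 9 lay here. The other 24 windows had 33 against 21 counts, then 22 against 20. Their shares were 61.1% (Clopper-Pearson 95% interval 46.9 to 74.1%) and 52.4% (36.4 to 68.0%), intervals that overlap. The stretch was picked on these values, so nothing is read from its contrast with the rest.

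**Figure D3:**
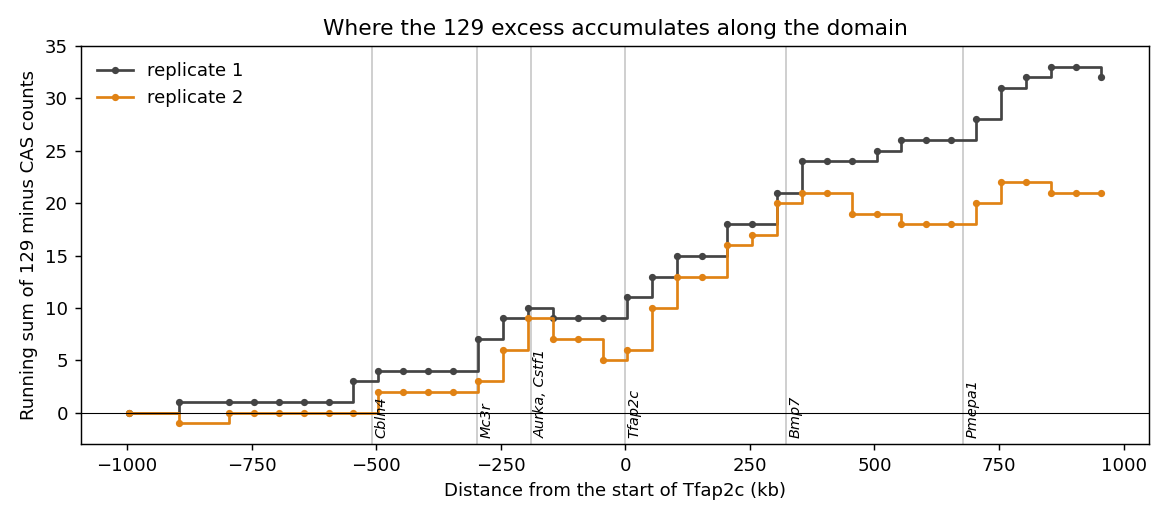
Running sum of the 129 minus CAS count (y axis) along the domain, by distance from the start of Tfap2c (kb, x axis), for each replicate; vertical lines mark gene positions. Both lines climb from Mc3r to the first Bmp7 window with a dip at and after Aurka and Cstf1, then the line of replicate 1 goes on to 32 while that of replicate 2 ends at 21.

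Tfap2c overlapped 2 windows, 172500001 to 172550000 and 172550001 to 172600000. The first had 5 against 3 counts (129 against CAS) in replicate 1 and 4 against 3 in replicate 2, and the second 4 against 2, then 4 against 0. Summed, the gene had 9 on 129 and 5 on CAS in replicate 1, and 8 against 3 in replicate 2, so its alleles did not overlap across the replicates. The difference was 4.5 ± 0.707 counts (SD, n = 2). With 12.5 counts per window over the 4 columns, Tfap2c and Pmepa1 had the highest level among the coding genes of the domain.

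Between Tfap2c and Bmp7, 3 windows without a coding gene had 129 higher in both replicates. The windows from 172650001 and from 172750001, also without a coding gene, held 0 counts and a single 129 count. The window at 172600001 to 172650000, over the noncoding gene Gm36038, had 3 against 1 counts, then 4 against 1. The window at 172700001 to 172750000, which overlaps no annotated gene and lies 118012 bp from Bmp7, had 4 against 1 in both replicates. The window at 172800001 to 172850000, over the noncoding gene Gm36254 and 18012 bp from Bmp7, had 6 against 3, then 4 against 1. Together with the second Tfap2c window, the last 2 had the largest summed difference of the domain, 6 counts each. In the 3 windows without a coding gene, each 129 value exceeded the highest CAS value of the same window. They were picked for 129 being higher in both replicates. How often other windows of the table do the same was not counted, so nothing is read from it.

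Bmp7, 72310 bp long, overlapped 2 windows that differed from each other. The window at 172850001 to 172900000 had 6 against 3 counts in replicate 1 and 3 against 2 in replicate 2. The window at 172900001 to 172950000 was balanced, with 2 against 2, then 1 against 1. Over both, Bmp7 had 8 against 5, then 4 against 3 counts, a difference of 2 ± 1.41 counts (SD, n = 2). The CAS count of replicate 1 was above the 129 count of replicate 2, so the alleles overlapped across the replicates.

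Aurka and Cstf1 went the other way. Both lie wholly in the window at 172350001 to 172400000, which parts of Fam210b and Cass4 also reach, and so have identical values. It had 1 count on 129 and 2 on CAS in replicate 1, and 1 against 3 in replicate 2, a difference of -1.5 ± 0.707 counts (SD, n = 2). It was the single window of the domain with CAS higher in both replicates, by 1 and 2 counts. With the windows 50 kb to each side added, the mean difference was 0.5 counts, on the 129 side.

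Mc3r, although only 2623 bp long, spans the border of 2 windows. The window at 172200001 to 172250000, with its start, had 5 against 2 counts, then 3 against 2, and the next one 2 against 0, then 4 against 1. Summed, Mc3r had 7 against 2 in replicate 1 and 7 against 3 in replicate 2, a difference of 4.5 ± 0.707 counts (SD, n = 2) with no overlap between the alleles. Its start window alone gave a mean difference of 2 counts. Cbln4, with 1 window at 172000001 to 172050000, had 3 against 2, then 2 against 0 counts, a difference of 1.5 ± 0.707 counts (SD, n = 2); the values of the 2 alleles met at 2 counts.

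These differences sum over 2 windows for Tfap2c, Mc3r and Bmp7 and are those of 1 window for Cbln4, Aurka and Cstf1. In order of the difference, Tfap2c and Mc3r (4.5 counts each) stood first, then Bmp7 (2), Cbln4 (1.5) and Aurka with Cstf1 (-1.5). Bmp7 and Cbln4 did not differ beyond their spread. An SD of 2 libraries is a rough measure of spread, and the order was not tested against counting error. The 8 windows of the 6 genes had 28 against 16 counts in replicate 1 and 22 against 12 in replicate 2, shares of 63.6% and 64.7%. The 30 other windows of the domain had 63.9% and 58.5%, so the excess was not confined to the named genes.

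Of all 19 coding genes in the windows of the domain, 6 (4 of them members) were higher on 129 in both replicates, where 14.5% of the 17070 coding genes with a count are, and 3 (Aurka, Cstf1 and Cass4) were higher on CAS in both, where 15.4% are. The 19 genes share 18 windows and are not independent. Besides the members, Pmepa1, a transmembrane inhibitor of TGF-beta signalling, had 10 against 5 counts, then 7 against 3, over 2 windows. Zbp1, a sensor of Z-form nucleic acids, had 4 against 2 in both replicates, in a window that Pmepa1 shares. Cass4, an adaptor of the Cas scaffold family, had 2 against 3, then 3 against 5, and thus stood on the CAS side with Aurka and Cstf1, whose window it shares.

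Between Cstf1 and Tfap2c, and again past Bmp7, lay windows whose CAS excess came from replicate 2 alone. The window of Rtf2, Gcnt7 and Fam209 at 172450001 to 172500000 had 1 against 1 counts in replicate 1 and 0 against 2 in replicate 2. Rtf2 encodes a replication termination factor homologue. Spo11, which makes the meiotic double-strand breaks, had 2 against 2, then 1 against 3. Neither window differed in replicate 1. Pck1, a key enzyme of gluconeogenesis, had 1 on each allele in replicate 1 and 0 in replicate 2. Ctcfl, the testis paralogue of Ctcf, had 2 against 1, then 2 against 3, opposite directions in the 2 libraries.

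**Figure D4:**
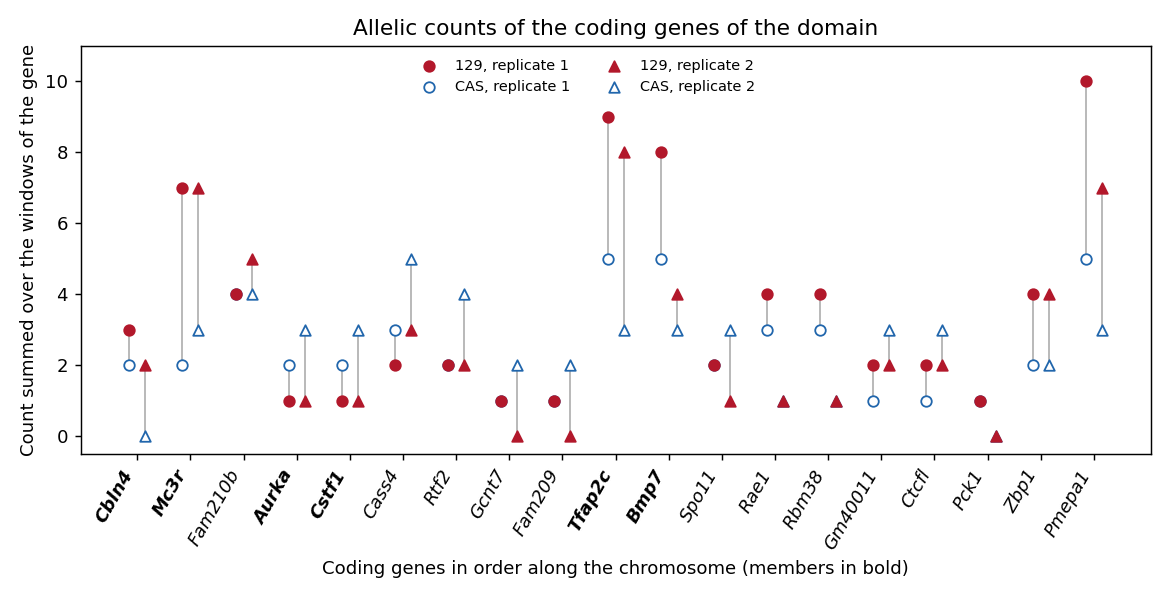
Counts summed over the windows of each coding gene of the domain (y axis), in chromosomal order (x axis, members in bold), with 129 filled, CAS open, circles for replicate 1 and triangles for replicate 2; where both alleles have the same count the filled symbol covers the open one. Tfap2c, Mc3r and Pmepa1 have all 129 points at 7 or more and all CAS points at 5 or fewer, while Aurka and Cstf1 have 129 at 1 and CAS at 2 and 3.

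The both-allele counts, which include the 129 counts on which the domain was chosen, were higher in windows with a coding gene. The domain averaged 3.05 counts per window in replicate 1 and 2.61 in replicate 2, against 2.05 and 2.73 over the whole table. On 129 alone its means were 1.95 and 1.58, against 1.00 and 1.36 over the table. On CAS they were 1.11 and 1.03, against 1.05 and 1.37. Its 18 windows with a coding gene averaged 8.33 counts over the 4 columns and its 20 windows without one 3.25. Over the table these means were 5.70 and 3.52. The windows with 129 higher in both replicates held between 7 and 15 counts over the 4 columns, with a median of 11, and the other windows with a count a median of 4. A direction in both replicates needs a count in each of them. The 129 share was above 50% in windows with a coding gene (61.9% and 59.1%) and in those without one (68.8% and 63.6%).

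The balance of the replicates differed between the domain as a whole and the table. Replicate 2 had 1.33 times the counts of replicate 1 over the whole table. The ratio was 1.18 in windows with a coding gene and 1.76 in those without one. In the domain the replicates held 116 and 99 counts, a ratio of 0.853. The ratio was 0.968 in the 2 Mb before it and 1.08 in the 2 Mb after it. Some other 2 Mb stretches of chromosome 2 also had fewer counts in replicate 2, while most had more. The stretch at 163500001 to 165500000 had 60 counts on 129 and 54 on CAS in replicate 1, then 35 and 43. In the 4 segments of 500 kb of the domain, in order, the ratio was 1.33, 1.04, 0.776 and 0.688. The last 2, with Tfap2c, Bmp7 and Pmepa1, were thus the lowest. The first, without a coding gene, rests on only 9 and 12 counts. With 1 group of 2 libraries no test of this ratio exists. Across the 29 windows with a count, the both-allele counts of the replicates correlated at r = 0.661 and their allelic differences at r = 0.639; neighbouring windows share libraries, so both are descriptions.

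Genes of the same families elsewhere in the genome were counted in the same way. Among the 4 other TFAP2 genes with a count, 0 stood on the 129 side in both replicates and 1 on the CAS side, namely Tfap2d, with 1 against 5, then 4 against 5 counts. Among 13 other BMP ligand genes, 3 stood on the 129 side, 2 on the CAS side. Bmp1, a metalloproteinase that carries the family name, had 3 against 7, then 3 against 5. Of 12 BMP receptor and Smad genes, 1 was higher on each allele, and of 14 BMP antagonists and targets, 0 on 129 and 1 on CAS. These read against the shares of 14.5% and 15.4% over all coding genes.

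Of 13 other Aurora kinases and mitotic partners, 4 were higher on 129, where 14.5% of all coding genes are, and 3 on CAS, where 15.4% are. Aurkc, the Aurora kinase of germ cells, had 6 on 129 against 2 on CAS in both replicates, and Ckap5, a microtubule polymerase, had 3 against 5, then 4 against 6. Of 14 other cleavage and polyadenylation genes, 1 was higher on 129 and 0 on CAS, beside the same 14.5% and 15.4%. The gene was Cpsf6, a subunit of cleavage factor I, with 6 against 3, then 5 against 2 counts.

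Of 8 other genes of the melanocortin system, 0 were higher on 129 and 1 on CAS, and of 9 other cerebellin genes and partners 3 and 3, again beside 14.5% and 15.4% over all coding genes. Among these, Grid1, a glutamate receptor-like gene, had 7 against 16, then 8 against 15, and the netrin receptor gene Dcc 9 against 14, then 30 against 50. The primitive endoderm list had counts in 3 of its 4 genes, and no window of the table overlapped the other.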

How the data were processed

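Allele-resolved ATAC-seq was measured in 2 replicates of the F121-6 line. Per the submitters' processing notes the build was mm10, and the tools included bedtools, SAMtools, MACS2 and Bowtie2, with no version or role stated. The deposited values are counts, whole numbers per 50 kb window in 4 columns, 1 for each allele of each replicate. The sources used here do not say what is counted, how alleles were assigned or how windows were chosen, and the counts run from 0 to 18. The table covers 19 chromosomes; chromosome X was not analysed here. In the domain 2 of 40 grid windows are not in the table.

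The members and lists were chosen with earlier results of these data known. Alleles were compared within each replicate, unscaled, with no test, because the domain was chosen on this contrast. A window belongs to a gene if they share a base, and exons and introns were not separated. Coordinates are 1-based. Named are the members, coding genes of windows with a difference of 2 or more counts in 1 direction in both replicates, genes of the 3 largest differences on each side, and list genes with such a difference; other list genes and noncoding genes named were chosen after their values were seen. The sliding 2 Mb placements, the stretch from Mc3r to Bmp7 and the promoter motifs were chosen after seeing the data. 1 gene was left out of a family list and is not reported here. Of the family lists, Acvrl1, Nbl1, Cstf2 and Clp1 overlapped no window of the table and Asip was not matched by symbol, and counts are over the genes with a count. Alternatives covered scaling, borders, filters, window size and replicates. Counting of directions was checked on simulated counts with a built-in difference equal to the minimum required there, so recovery was certain. That minimum was larger than in the rules above, and the check covers the code only. Shares and overlaps were checked on single known cases. Python 3.11.15, pandas 2.3.3 and scipy 1.17.1 were used.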

Additional observations from a re-analysis of the deposited data

How the results depend on the processing

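The 2 alleles of a replicate are paired, and directions were read within each replicate. The allelic contrast was given no test, because the domain was chosen on it. Of 55 alternative values, 37 stayed within the spread between replicates or within 1.5 times the count, 16 moved and 2 changed sign. Part of the 37 was fixed in advance. With 2 replicates, a share or gene difference without 1 of them always lies within 1 SD of the mean. For Cbln4, Aurka and Cstf1 the start window is the only window of the gene. The 2 that changed sign were Aurka and Cstf1 over the same windows, at 0 in replicate 1 and 1 in replicate 2. With alleles scaled to the rest of chromosome 2, the mean 129 share of 62.2% became 59.5%. It was 58.6% with 500 kb added on each side and 51.6% with occupied windows in place of counts. Its other alternatives that kept both replicates stayed within 1 SD. The share was 60.6% without replicate 1 and 63.8% without replicate 2, which by arithmetic cannot leave 1 SD. The 12 windows higher on 129 became 7 at a difference of 2 or more counts and 7 in pairs of adjacent windows, and 14 to 18 without 1 replicate. The 1 window higher on CAS became 0 under both of these rules, 4 by the sum over replicates, 2 with 500 kb added on each side, and 2 (without replicate 2) to 6 (without replicate 1) without 1 replicate.

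With 50 kb added to each side of a gene, the mean difference of Cbln4 was 2.5, of Mc3r 6.5, of Tfap2c 6 and of Bmp7 4 counts, and that of Aurka and Cstf1 changed sign to 0.5. The start window of Mc3r alone gave 2. The start window was not run for Tfap2c and Bmp7. Without 1 replicate each, the difference ranged from 1 to 2 for Cbln4, 4 to 5 for Mc3r, -2 to -1 for Aurka and Cstf1, 4 to 5 for Tfap2c and 1 to 3 for Bmp7. At 0 to 6 counts per allele and window, a difference of a few counts may be counting error. No difference of a window or gene was tested against it.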

Other observations

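The stretches most like the domain in their pair of 129 shares were all on chromosome 10. Among 870 stretches of 2 Mb with 50 or more counts per replicate, on the grid that holds the domain, the 3 nearest lay at 13500001 to 15500000, 27500001 to 29500000 and 33500001 to 35500000. Their distances from the domain were 0.211, 1.31 and 1.91 percentage points over the 2 replicates. The first had shares of 64.0% and 60.6%, and its window with the most counts, over the zinc finger gene Hivep2, had 5 against 3 counts (129 against CAS) in replicate 1 and 4 against 2 in replicate 2. In the other two, those windows lay over Soga3 (4 against 2, then 4 against 3) and over Dse, a dermatan sulfate epimerase gene (9 against 4, then 9 against 5). In all, 7 of the 870 stretches had a higher mean share than the domain.

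The 2 grid windows of the domain that are not in the table lie at 171550001 to 171600000 and 171650001 to 171700000, both before Cbln4.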
